A study of Mus musculus with 5 samples.

Results

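Cathepsins are proteases of the lysosome, and 9 of them were followed here through the kidney of mice given aristolochic acid I (AAI), a plant toxin taken up by the proximal tubule: Ctsk, Ctsb, Ctsd, Ctsl, Ctss, Ctsz, Ctsh, Ctsc and Ctsa. They were chosen as genes by symbol, and all 9 were found among the 32285 genes of the feature tables. The data were droplet-based 3′ single-cell RNA libraries of whole digested kidneys from wild-type male C57BL/6 mice aged 8-10 weeks. The control group was 1 library from vehicle-treated mice at week 0, the AKI (acute kidney injury) group was 2 libraries taken at week 2, after AAI at 3 mg/kg into the peritoneum every 3 days, and the CKD (chronic kidney disease) group was 2 libraries taken at week 4, after a further period of 2 weeks without the toxin. All groups shared the strain and the sex, no group carried an engineered allele, and the labels do not say how many mice went into each library. The question asked of the data was how each cathepsin was distributed over cell classes, and how it changed from control to AKI to CKD in macrophages and in tubules.

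Cathepsins are made as inactive precursors, sorted to the lysosome through mannose 6-phosphate receptors and cut into active enzymes there. Ctsb, Ctsl, Ctss, Ctsz, Ctsh, Ctsc and Ctsk are cysteine proteases, Ctsd is an aspartic protease and Ctsa is a serine carboxypeptidase that also protects β-galactosidase and neuraminidase. Ctsk cleaves fibrillar collagen and is best known as the collagenase of the osteoclast, the bone-resorbing cell of the macrophage lineage. Ctss cuts the invariant chain of MHC class II in antigen-presenting cells, Ctsl does so in thymic epithelium, and Ctsc activates the serine proteases of granules. In the proximal tubule, lysosomal proteases degrade the proteins that the cell takes up from the filtrate.

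Positions are given on GRCm39 with the GENCODE annotation. Ctsk (chr3:95406178-95416732, plus strand) and Ctss (chr3:95433963-95463717, plus strand) are neighbours, 17230 bases apart with 1 gene between them that codes for no protein. The others are Ctsb (chr14:63358384-63383372, plus), Ctsd (chr7:141929646-141941775, minus), Ctsl (chr13:64507151-64518704, minus), Ctsz (chr2:174267304-174280832, minus), Ctsh (chr9:89936205-89958148, plus), Ctsc (chr7:87927092-87960096, plus) and Ctsa (chr2:164674778-164682961, plus). Ctsb, Ctsl, Ctsz and Ctsa each overlap a counted gene on the opposite strand. Ctsd, Ctsl and Ctss each overlap an annotated gene on the same strand that was not counted, a protein-coding gene for Ctsd (Gm49369) and pseudogenes for Ctsl (Gm49230) and Ctss (Hmgb1-ps5), so any read shared with these cannot be told apart.

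Promoter sequences are shown for the 4 members whose patterns differed most clearly in the values that follow, the neighbours Ctsk and Ctss and the pair Ctsd and Ctsl. Each is the 250 bases before the start of the gene from RefSeq (GRCm38.p6), 5′ to 3′ on the gene's own strand, and promoters were found for 7 of the 9 members. The windows are chr3:95498960-95499209 (plus strand) for Ctsk, chr3:95526536-95526785 (plus) for Ctss, chr7:142387828-142388077 (minus) for Ctsd and chr13:64370521-64370770 (minus) for Ctsl. Capitals mark CACGTG, the core of the sites bound by the lysosomal factors of the TFEB and MITF family, and GAGGAA, a core of the sites bound by PU.1, read on both strands (TTCCTC is GAGGAA on the other strand). The windows were also searched for TGANTCA, the AP-1 site.
Ctsk: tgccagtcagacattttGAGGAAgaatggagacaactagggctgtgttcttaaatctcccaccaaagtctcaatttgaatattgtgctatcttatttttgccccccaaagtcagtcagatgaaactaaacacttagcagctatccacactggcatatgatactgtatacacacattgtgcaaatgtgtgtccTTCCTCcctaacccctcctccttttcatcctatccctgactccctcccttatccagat
Ctss: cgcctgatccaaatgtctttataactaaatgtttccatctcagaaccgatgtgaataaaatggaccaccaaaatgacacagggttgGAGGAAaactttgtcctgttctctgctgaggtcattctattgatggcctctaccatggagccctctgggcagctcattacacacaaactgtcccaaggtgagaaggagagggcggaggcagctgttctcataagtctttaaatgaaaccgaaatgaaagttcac
Ctsd: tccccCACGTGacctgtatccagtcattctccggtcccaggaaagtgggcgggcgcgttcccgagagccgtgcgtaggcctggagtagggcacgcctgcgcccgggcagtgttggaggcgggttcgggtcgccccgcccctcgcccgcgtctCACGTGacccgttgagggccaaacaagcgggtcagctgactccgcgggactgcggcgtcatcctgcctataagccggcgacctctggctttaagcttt
Ctsl: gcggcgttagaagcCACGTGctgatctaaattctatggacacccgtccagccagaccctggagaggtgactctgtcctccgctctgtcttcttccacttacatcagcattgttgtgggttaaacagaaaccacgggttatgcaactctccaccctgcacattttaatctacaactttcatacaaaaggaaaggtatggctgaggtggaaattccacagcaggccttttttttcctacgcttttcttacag
CACGTG was found in 2 of the 7 windows, at 245 and 98 bases before the start of Ctsd and 236 before that of Ctsl, against 6.02% of 32851 promoter windows of this length. GAGGAA was found in 3 of the 7, those of Ctsk, Ctss and Ctsc, against 23.3% of all windows, and TGANTCA in 0 of the 7 against 6.75%. The searched motifs do not overlap one another, a match is a description of letters and not of a bound site, and the absence of a match in these windows says nothing about the factor.

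After filtering, 53718 cells remained in 45 clusters, with 8496 to 16330 cells per library and medians of 2866 to 5548 UMIs (unique transcript molecules) per cell. Levels are given as UMIs per 10000 UMIs of a cell class in a library, a scale of relative abundance that does not depend on transcript length in 3′ libraries. Classes were named from marker genes, and the genes with Cts symbols were left out of the clustering. The control library stood apart: 38.7% of its barcodes had over 30% mitochondrial UMIs, against 11.1-12.7% in the others, and 88 of its kept cells shared their barcode with a cell of CKD 2 whose UMI count was more than 20-fold theirs. CKD 1 also stood apart in holding the most cells and in the shallow depth of its TAL (thick ascending limb), thin limb, connecting tubule and collecting duct cells (a median of 2973.5 UMIs per cell in the thick ascending limb, against 14912 in CKD 2). By median, its proximal and distal convoluted tubule cells were not the shallowest of the 5 libraries, but in mean UMIs per cell they were the lowest. Its barcodes began at 1229 UMIs (500 to 599 in the others), and 15.45% were predicted doublets (7.33% to 8.96%). The 8 proximal tubule markers summed to 2.44 in its thick ascending limb and 3.17 in its distal convoluted tubule cells, against 0.29-0.82 and 0.40-1.65 elsewhere. In T lymphocyte-like cells the control was higher (2.27 against 1.75). Levels in T lymphocyte-like cells are given beside those of Ctsk as a class that should hold little of it, since free RNA reaches every droplet, whereas for Ctss and Ctsc these cells held more than endothelial-like cells in all 5 libraries.

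Of the 9 cathepsins, 6 had their highest level, averaged over the AKI and CKD libraries, in macrophage-like (Macro-like) cells: Ctsk, Ctsb, Ctss, Ctsz, Ctsc and Ctsa. Ctsd was highest in thick ascending limb-like (TAL-like) cells, Ctsl in thin limb-like cells and Ctsh in mature dendritic cell-like (mature DC-like) cells. The macrophages were considered in 2 parts, an SM-like cluster (after the scar-associated macrophages of the study) and the other 4 Macro-like clusters. The SM-like cluster was named from osteoclast-type markers such as Acp5, which encodes the acid phosphatase TRAP5, and Mmp9, and its leading genes by fold were Ctsk, Mmp9, Acp5, Mt3 and Slc9b2. All 7 Macro-like markers were detected in it in CKD, at a sum of 13.9 and 13.6 against 53.4 and 66.3 in the other Macro-like cells. The clusters were made from these same cells, so differences between classes are given as a description and were not tested.

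**Figure D1:**
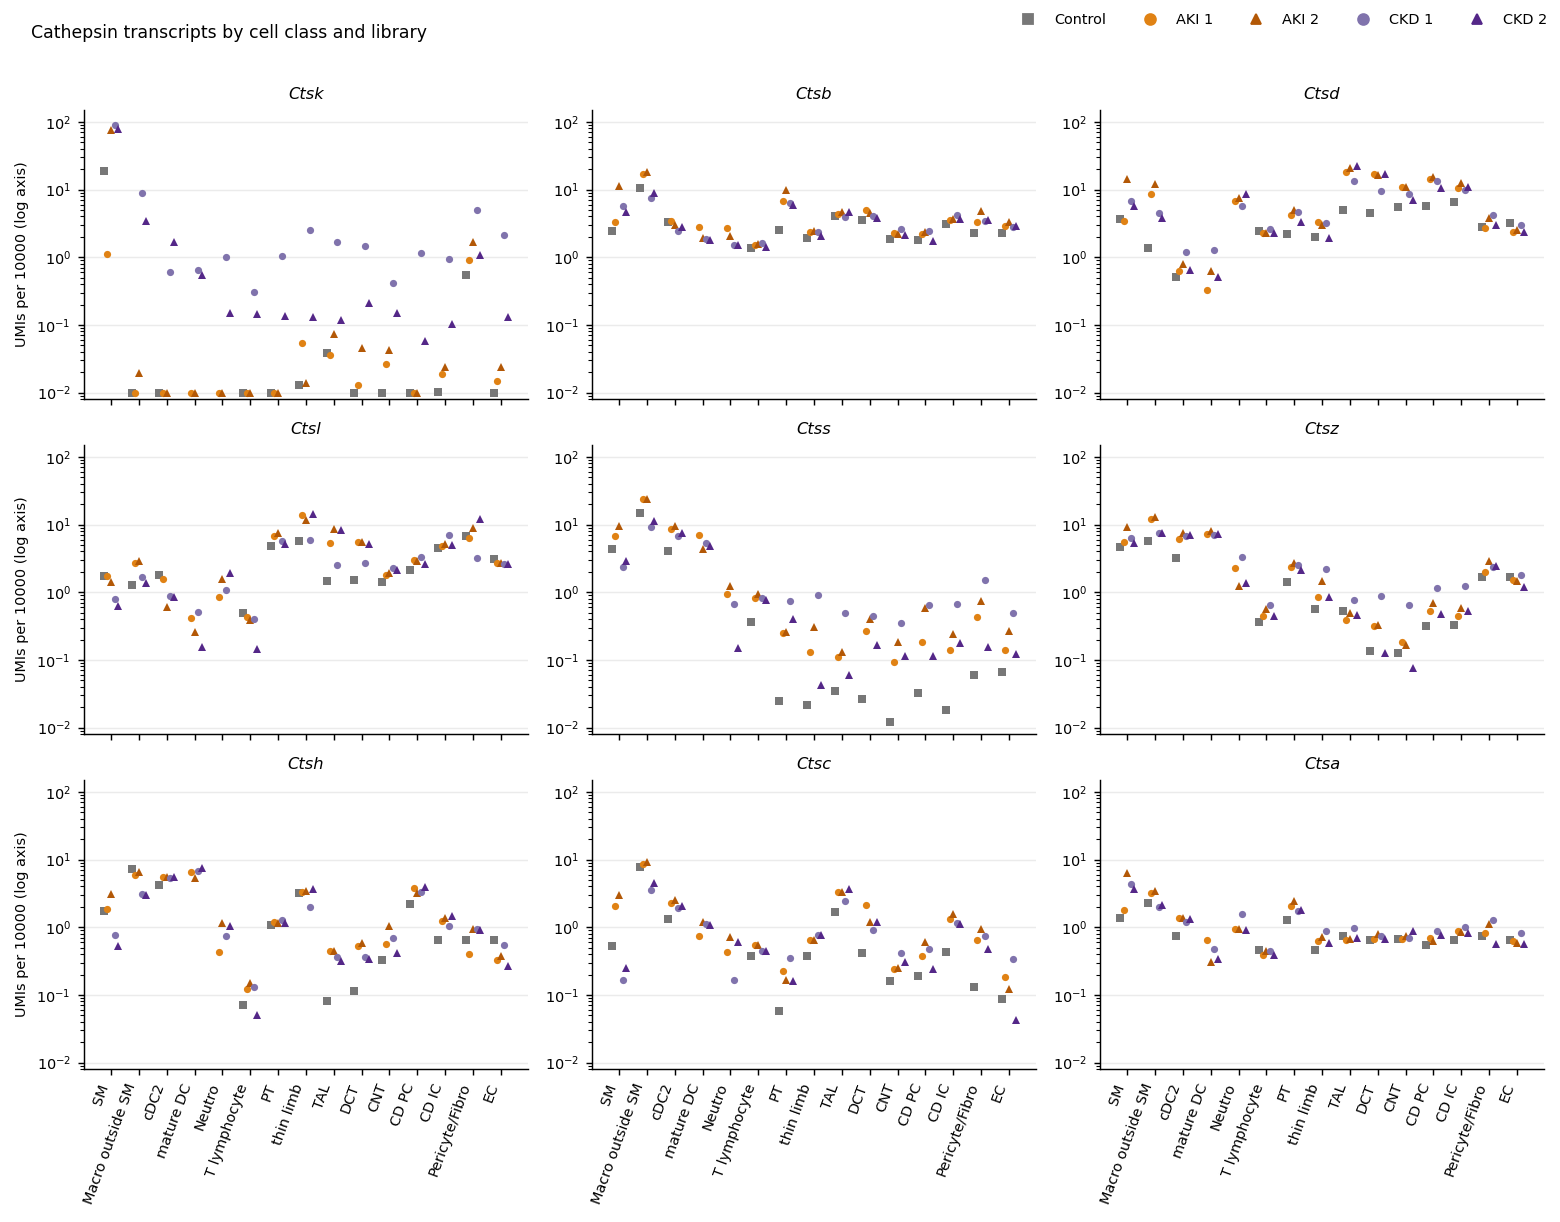
Levels of the 9 cathepsins in 15 cell classes, in UMIs per 10000 on a log axis, with 1 point per library and class (grey squares, Control; orange, AKI; purple, CKD). Values below 0.01 are drawn at 0.01 and sums of fewer than 20 cells are not drawn; Ctsk reached 78.59-90.23 in the SM-like cells of CKD, whereas Ctsd reached 13.30-22.31 in the TAL-like cells of the same libraries.

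Ctsk was the most concentrated of the 9. Its level in SM-like cells was 18.84 for the control, 1.12 for AKI 1 and 76.39 for AKI 2, then 90.23 and 78.59 for the CKD libraries. The remaining Macro-like cells came next in CKD, with 8.91 and 3.37, and pericyte and fibroblast-like (Pericyte/Fibro-like) cells followed with 5.06 and 1.09, a range that overlapped theirs. T lymphocyte-like cells held 0.30 and 0.15 in CKD and at most 0.01 in the other 3 libraries. Of all Ctsk UMIs in the kept cells of CKD 1, 68.6% were in SM-like cells and 88.1% in Macro-like cells, and in CKD 2 these shares were 90.6% and 96.6%.

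The SM-like level of Ctsk rested on very different numbers of cells. The cluster held 65, 65 and 61 cells of the control and the AKI libraries, against 327 of CKD 1 and 179 of CKD 2. In AKI 2 all 1339 of its Ctsk UMIs came from 3 cells of 21253 to 30096 UMIs each, and in AKI 1 the 18 UMIs came from 2 cells. In the control, 97 of the 109 Ctsk UMIs lay in the 32 SM-like cells whose barcode was shared with a deeper cell of CKD 2. Only in the CKD libraries, among the 5 sequenced, did most cells of the cluster hold the transcript: 97.6% and 91.1% of cells had at least 1 UMI, and at an equal depth of 1000 UMIs per cell these shares were 95.1% and 79.9%, against 3.56% and 1.52% of T lymphocyte-like cells (12.8% and 10.6% before thinning, at median depths of 3596 and 5655.5 UMIs). Thinning left out 0 SM-like cells in CKD 1 and 5 in CKD 2 as too shallow, but 48 of 65 in the control, 32 of 65 in AKI 1 and 27 of 61 in AKI 2.

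Counted without any cluster, 858 kept cells of CKD 1 (5.25%) and 145 of CKD 2 (1.65%) had at least 20 Ctsk UMIs per 10000. The control had 17 such cells, AKI 1 had 0 and AKI 2 had 3. In CKD 1, 625 of the 858 were Macro-like and 297 of those were SM-like, and in CKD 2, 142 of the 145 were Macro-like and 127 of those SM-like. Nearly all cells this rich in Ctsk were thus macrophages in CKD 2, whereas a larger share of those in CKD 1 lay in other classes.

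Ctss, the protease of class II presentation, was spread over the antigen-presenting cells and low in the SM-like cluster. Outside SM-like cells, Macro-like cells held 14.69 in the control, 23.75 and 23.50 in AKI, and 9.14 and 11.44 in CKD. Conventional dendritic cell-like (cDC2-like) cells came second with 8.59-9.57 in AKI and 6.82-7.44 in CKD, and mature DC-like cells held 4.38-7.02 and 4.86-5.34. Within SM-like cells of CKD it stood at 2.36 and 2.91, below the other Macro-like cells of both libraries. T lymphocyte-like cells held 0.36-0.93 over the 5 libraries, and PT-like (proximal tubule-like) cells 0.02-0.75.

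Ctsc, the activator of granule proteases, was also highest in macrophages, with the thick ascending limb next in AKI and CKD. Macro-like cells outside SM-like held 8.57 and 9.23 in AKI and 3.54 and 4.49 in CKD, and TAL-like cells came second with 3.30 and 3.34 in AKI and 2.42 and 3.65 in CKD, a range that overlapped the macrophages of CKD. In SM-like cells of CKD it stood at 0.17 and 0.25, under the 0.45 and 0.44 of T lymphocyte-like cells in the same libraries.

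Ctsh, an aminopeptidase that also processes surfactant protein, was shared by macrophages, dendritic cells and epithelium. In AKI the Macro-like cells outside SM-like (5.94 and 6.46), mature DC-like cells (5.36 and 6.45) and cDC2-like cells (5.52 and 5.52) followed in this order, and each overlapped the next. In CKD mature DC-like cells (6.79 and 7.47) and cDC2-like cells (5.35 and 5.49) lay above collecting duct principal-like (CD PC-like) cells (3.36 and 3.87) and Macro-like cells outside SM-like (2.95 and 3.10).

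Ctsz, a carboxypeptidase, was highest in Macro-like cells outside SM-like in AKI, with 11.87 and 12.85. In CKD its level there (7.57 in both libraries) was only slightly above those of mature DC-like (6.98 and 7.25) and cDC2-like cells (6.74 and 7.03). Ctsb, a broad-specificity endopeptidase and exopeptidase, led in Macro-like cells outside SM-like in all 3 groups, and in AKI and CKD the PT-like cells came second, with 8.30 ± 2.07 in AKI (SD, n = 2) and 6.06 ± 0.27 in CKD. Besides Ctsk, only Ctsa and Ctsd among the 9 had CKD levels in SM-like cells above those of the other Macro-like cells. Ctsa stood at 4.31 and 3.65 in SM-like cells against 2.01 and 2.15 in the others, and Ctsd at 6.73 and 5.67 against 4.50 and 3.82. For Ctsd this held against the other Macro-like cells pooled. Their cluster led by Cxcl2, described below, held more Ctsd than SM-like cells in both CKD libraries.

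Ctsd and Ctsl were genes of the epithelium as much as of macrophages. In the control Ctsd was highest in intercalated-like (CD IC-like) cells of the collecting duct, at 6.63, and Macro-like cells held 1.41, less than the 2.24-2.60 of T lymphocyte-like cells. In AKI the TAL-like cells (18.17 and 20.75), distal convoluted tubule-like (DCT-like) cells (16.76 and 16.51) and CD PC-like cells (14.15 and 15.08) stood apart in this order without overlap. Ctsl was highest in thin limb-like cells in AKI (13.61 and 11.63), and there the next places, held by Pericyte/Fibro-like, PT-like and TAL-like cells, overlapped with ranges between 5.36 and 8.86. An unnamed cluster led by Ncam1 held higher levels of Ctsl than these classes in the control and in AKI, 12.48 in the control and 19.06 and 20.86 in AKI, and 10.81 and 10.58 in CKD, in 27 to 104 cells per library.

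Over the 81 sums of a class in a library, each of at least 20 cells, the genes whose log2 levels followed a member most closely were found by Pearson correlation, as a description, since sums of the same library share its depth and free RNA. Ctsk was followed by Slc9b2 (r = 0.84), Mt3 (0.82) and Acp5 (0.81). Ctss was followed by the class II gene H2-Eb1 (0.94), Cybb (0.93), a subunit of the phagocyte oxidase, and H2-Aa (0.93), and Ctsz by H2-Eb1 (0.85), H2-Aa (0.84) and H2-Ab1 (0.83). For Ctsb they included Grn (0.78) and Cebpa (0.76), and for Ctsl they were Tsc22d1 (0.85), Pdgfa (0.84) and Ccn1 (0.84). Ctsd was followed by Mgst1, Nudt4 and Prkab1 (0.78 each), Ctsh by Fuca1 (0.74), Cxcl16 (0.73) and Erp29 (0.68), Ctsc by Mcub (0.66), Erp29 (0.64) and Fcgr1 (0.64), and Ctsa by Gpx1 (0.76), Sirpa (0.72) and Lipa (0.72). Between members, the correlation of Ctsk with its neighbour Ctss was 0.36, and its correlations with the other members were 0.03 to 0.42.

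In Macro-like cells, taken whole, both AKI libraries lay above the control for 7 of the 9 members, a difference that cannot be tested with a control of 1 library. How many of all genes lay above it in both was not counted. Ctsd was 1.41 in the control (95% exact Poisson interval 1.28-1.56, which covers counting error only), 8.54 in AKI 1 and 11.99 in AKI 2, or 6.05-fold and 8.50-fold the control. Ctsl was 1.30 in the control against 2.67 and 2.89 in AKI, 2.05-fold and 2.22-fold. Ctsz was 5.75 in the control against 11.75 and 12.79, 2.04-fold and 2.23-fold.

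These 3 of the 9 members lay at least 2-fold above the control in both AKI libraries, where 9.29% of 11111 genes did so. Ctsb (10.24 in the control, 16.89 and 18.25 in AKI) and Ctss (14.47, then 23.43 and 23.31) were higher by less than 2-fold, Ctsa (2.27, then 3.19 and 3.47) and Ctsc (7.59, then 8.44 and 9.14) by still less, and Ctsh was lower in AKI (7.22, then 5.86 and 6.42). Ctsk did not move one way, with 0.39 in the control, 0.03 in AKI 1 and 1.06 in AKI 2. The control macrophages were also shallower, with a median of 3073 UMIs per cell against 9204 and 9067, and the part of depth and of the different processing of the control in these folds was not tested.

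From AKI to CKD the 9 cathepsins of Macro-like cells parted: Ctsk rose, as did 16.8% of the 12676 genes tested, and the other 8 fell, as did 17.3%. Ctsk was 0.03 and 1.06 in AKI and 29.93 and 32.91 in CKD, a log2 fold change of 5.66 ± 1.25 (SE), adjusted p = 0.0148 (edgeR quasi-likelihood test, Benjamini-Hochberg over all genes tested, n = 2 libraries per group). Ctss was 23.43 and 23.31 in AKI and 7.39 and 8.09 in CKD, a log2 fold change of -1.77 ± 0.12, adjusted p = 0.000293. Ctsc was 8.44 and 9.14, then 2.67 and 2.82, a change of -1.85 ± 0.11, adjusted p = 0.000269. For each of the 9 members the CKD libraries lay wholly on 1 side of the AKI libraries, but the share of all genes that did so was not counted.

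Ctsh was 5.86 and 6.42 in AKI and 2.49 and 2.00 in CKD, a log2 fold change of -1.63 ± 0.12, and Ctsb was 16.89 and 18.25, then 7.07 and 7.24, a change of -1.47 ± 0.11. Ctsl (2.67 and 2.89, then 1.44 and 1.08) changed by -1.32 ± 0.14, and Ctsd (8.54 and 11.99, then 5.08 and 4.55) by -1.27 ± 0.16. The falls were smallest for Ctsz (11.75 and 12.79, then 7.26 and 6.68), by -0.99 ± 0.10, and for Ctsa (3.19 and 3.47, then 2.60 and 2.74), by -0.49 ± 0.11. Their adjusted p-values in the same edgeR fit were between 0.000349 and 0.0158.

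Among all genes tested in these cells, 34.0% were called in either direction and the median log2 fold change was 0.01, whereas the 9 members had a median of -1.32. Ctsa lost its call without AKI 1 (adjusted p = 0.0820) and without AKI 2 (0.125). The summed level of the 7 Macro-like markers moved in the same direction as the 8 members that fell, from 138.8 and 139.8 in AKI to 43.2 and 45.6 in CKD, with 0 of the 7 at a count of 0. The part that this change in the makeup of the class had in the falls was not tested beyond the comparisons by cluster given below.

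**Figure D2:**
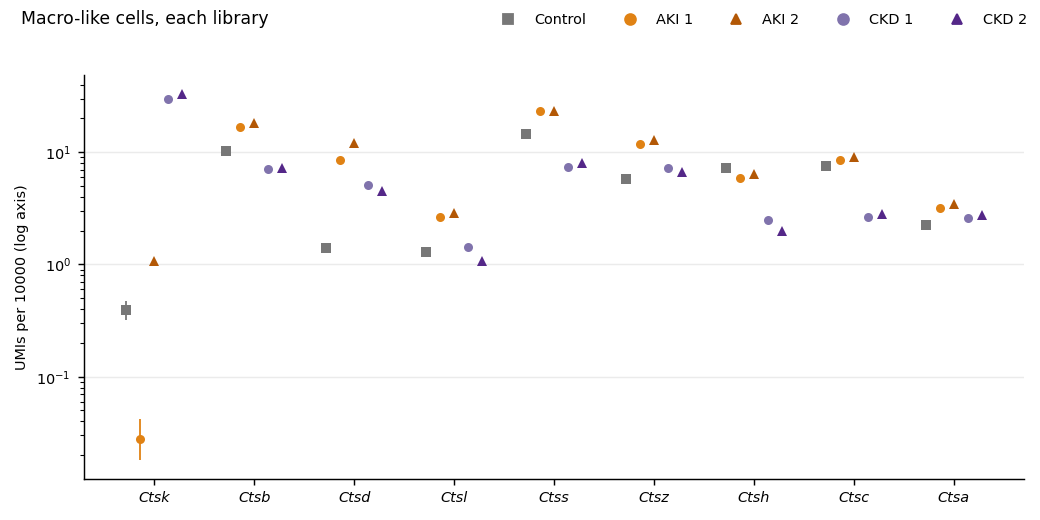
Levels of the 9 cathepsins in Macro-like cells, 1 point per library, in UMIs per 10000 on a log axis, with bars for the exact 95% Poisson interval of the count. The CKD points (purple) lie at 29.93 and 32.91 for Ctsk, above AKI (orange), and below AKI for the other 8 members.

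The makeup of the cathepsin transcripts differed more than their sum. The 9 members together made up 50.6 UMIs per 10000 of Macro-like cells in the control, 80.8 and 89.3 in AKI and 65.9 and 68.1 in CKD. Ctsk was 0.775% of these UMIs in the control, 0.035% and 1.19% in AKI, and 45.4% and 48.3% in CKD. In SM-like cells of CKD the sum was 117.4 and 102.2, of which Ctsk was 76.9% in both libraries.

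Outside the SM-like cluster the same 8 members fell and Ctsk rose, among 12100 genes of which 12.2% were called as lower. Ctsd changed by -1.49 ± 0.17 on the log2 scale (adjusted p = 0.00555), Ctss by -1.38 ± 0.16 (0.00548), Ctsc by -1.32 ± 0.16 (0.00612) and Ctsb by -1.28 ± 0.14 (0.00527). Ctsk was 0.01 and 0.02 in AKI and 8.91 and 3.37 in CKD, on 6, 25, 9875 and 2963 UMIs. Its fitted log2 fold change of 8.53 ± 0.66 (adjusted p = 0.00284) rests on the few AKI UMIs. With AKI 1 left out, only Ctsd was called among the members, and with AKI 2 left out fewer members were called than in the full fit. How many genes were called in all also changed widely with the library left out, as given below.

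By cluster, Ctsk outside SM-like cells lay mainly in a Macro-like cluster led by Jdp2, Pltp and Lpl, which held 7 cells in the control, 23 and 48 in AKI and 760 and 144 in CKD. Its Ctsk was 0.00 and 0.03 in AKI, then 16.48 and 6.92, and its Acp5 1.03 and 1.33, then 27.87 and 15.34. In the same cluster Ctss was 21.14 and 19.72 in AKI and 5.25 and 5.54 in CKD, and Ctsc 9.27 and 8.85, then 1.45 and 2.03. The low Ctss and Ctsc of CKD macrophages were thus present in this cluster as well as in the SM-like cells.

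In the other clusters the CKD libraries did not always lie together. In the largest, led by Ccl8, Ccl7 and Ccl12, Ctss was 22.97 and 23.04 in AKI, 7.84 in CKD 1 and 17.01 in CKD 2, and Ctsb 17.66 and 18.38, then 6.00 and 14.09. In that cluster the cells of CKD 1 had a median of 2119.5 UMIs against 11065 in CKD 2 and 10538.5 and 9987.5 in AKI. In the cluster led by Cxcl2, Lyz2 and Ccl6, Ctsd was 16.27 and 21.43 in AKI and 7.32 and 7.07 in CKD, whereas Ctsh (6.15 and 6.75, then 6.70 and 5.29) overlapped.

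Without the SM-like and the Jdp2-led clusters, an alternative chosen after seeing the data, 7 of the 9 members were still called in edgeR, among 681 genes in all. The fit with these clusters called 4315 of 12676 genes. For the fit without them, the share of genes called in each direction was not counted. Ctsk was called as higher (5.04, adjusted p = 0.0146), and Ctsd (-0.97, 0.0179), Ctss (-0.79, 0.0234), Ctsb (-0.70, 0.0252), Ctsc (-0.63, 0.0348), Ctsl (-0.60, 0.0373) and Ctsa (-0.55, 0.0449) as lower. Ctsh (-0.46, 0.0704) and Ctsz (-0.38, 0.0942) were not called. The changes of Ctss, Ctsc, Ctsh, Ctsb, Ctsl and Ctsz were all smaller by more than 1.5 times on the log2 scale than with these clusters included.

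**Figure D3:**
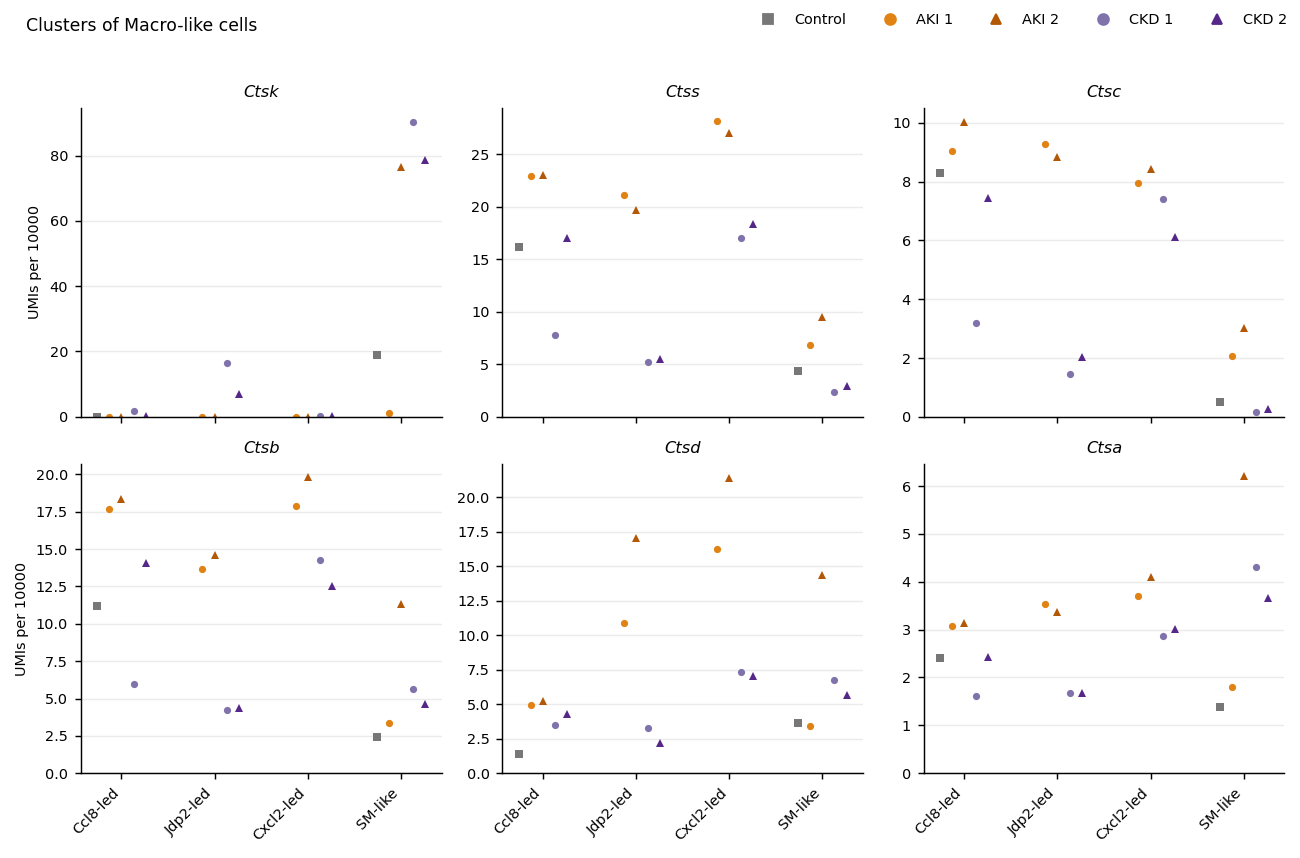
Levels of 6 cathepsins in 3 of the 4 Macro-like clusters outside SM-like, named by their leading gene, and in SM-like cells, in UMIs per 10000, with 1 point per library and no point for fewer than 20 cells. In CKD (purple) Ctsk is at 16.48 and 6.92 in the Jdp2-led cluster and highest in SM-like cells, where Ctss and Ctsc are lowest; CKD 1 and CKD 2 part in the Ccl8-led cluster.

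The other genes of the lysosome moved both ways in Macro-like cells. Of 40 other hydrolases of the lysosome 5 rose and 20 fell (median log2 fold change -0.51), the largest changes being Acp5 (1.34 and 2.82 in AKI, 41.54 and 42.96 in CKD, 4.18 ± 0.34), the arylsulfatase Arsb (0.14 and 0.19, then 1.12 and 1.20, 2.63 ± 0.18) and the phospholipase Pla2g15 (0.42 and 0.43, then 0.11 and 0.18, -1.69 ± 0.24). Of 17 membrane proteins 4 rose and 7 fell (median -0.36), with Atp6v0d2, a subunit of the proton pump used by osteoclasts, at 0.08 and 0.21, then 4.01 and 4.22 (4.64 ± 0.39). Slc11a1, a metal transporter of the phagosome, fell (-1.86 ± 0.17), as did Scarb2 (-1.55 ± 0.11), the receptor that carries glucocerebrosidase.

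Among 18 genes of sorting and processing, 3 rose and 4 fell (median -0.11). The mannose 6-phosphate receptor Igf2r (0.06 and 0.07, then 0.39 and 0.39) rose by 2.44 ± 0.14 and Gnptab, which makes the mannose 6-phosphate tag, by 1.48 ± 0.17, while the sorting receptor Sorl1 fell (-1.04 ± 0.26). Of the 4 lysosomal transcription factors, Mitf rose (0.23 and 0.28, then 0.45 and 0.55, 0.80 ± 0.17) and Tfe3 fell (-0.78 ± 0.23). Without the SM-like and Jdp2-led clusters the changes of Mitf (-0.20, adjusted p = 0.591) and Arsb (-0.40, 0.235) had the opposite sign.

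Of 12 genes tested in the list of inhibitors, 2 rose and 4 fell (median 0.20). The list also held Crbn (0.12, not called), which is no cathepsin inhibitor. Cst7, the inhibitor cystatin F, was 0.04 and 0.04 in AKI and 0.31 and 0.30 in CKD (2.80 ± 0.17), Cd74, the invariant chain that Ctss cuts, was 196.1 and 180.3, then 56.6 and 58.3 (-1.89 ± 0.11), and Ctla2b was 0.37 and 0.33, then 0.13 and 0.07 (-2.05 ± 0.26). Of 8 other cathepsins and related proteases tested, 0 rose and 2 fell (median 0.18), the asparaginyl endopeptidase Lgmn (6.59 and 6.75, then 2.21 and 2.31, -1.74 ± 0.11) and Ctse (0.0128 and 0.0210, then 0.0040 and 0.0048, -2.10 ± 0.54), the lowest of these levels. Of 13 genes of matrix and its collagenases, 2 rose and 3 fell (median -0.68), with Mmp9 at 0.22 and 0.94, then 16.70 and 23.04 (4.92 ± 0.64), Mmp2 at -3.80 ± 0.25 and Fn1 (2.47 and 2.57, then 0.30 and 0.34) at -3.16 ± 0.14. The members that rose in these lists include genes of the osteoclast (Acp5, Atp6v0d2, Mmp9), and the lists were chosen with earlier results of these data known, so their counts are a description.

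In PT-like cells Ctsb, Ctsd and Ctsl were the cathepsins of highest level, and both AKI libraries lay above the control for each of them. Ctsb was 2.52 in the control (exact Poisson interval 2.40-2.65), 6.84 and 9.76 in AKI and 6.25 and 5.87 in CKD, so that the AKI libraries were 2.71-fold and 3.87-fold the control. Ctsd was 2.17 in the control, 4.15 and 5.04 in AKI and 4.72 and 3.33 in CKD, and Ctsl was 4.85, then 6.82 and 7.61, then 5.63 and 5.16. Of the 9 members, 3 were at least 2-fold above the control in both AKI libraries, against 6.53% of 11233 genes: Ctsb, Ctss and Ctsc. Of these, Ctss (0.02, then 0.25 and 0.26) and Ctsc (0.06, then 0.17 and 0.22) were below the level of T lymphocyte-like cells in each of these libraries.

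The clusters of PT-like cells differed in these levels. In the cluster led by Slc4a4, with medians of 8748 to 25603 UMIs per cell, Ctsl was 7.31 in the control, 7.41 and 7.95 in AKI and 7.50 and 6.14 in CKD, and Ctsb was 3.52, then 7.40 and 10.34, then 7.63 and 7.15. In the cluster led by Miox, with medians of 797.5 to 3247 UMIs, Ctsl was 1.37, then 5.01 and 6.73, then 3.62 and 3.82, and Ctsb 0.97, then 4.93 and 7.86, then 4.96 and 4.62. Ctsb was therefore more than 2-fold higher in AKI than in the control in both of these clusters, and Ctsl in the Miox-led cluster and not in the Slc4a4-led one. The remaining PT-like cluster, led by Gm26917, differed less. Its Ctsb was 2.30 in the control and 4.13 ± 1.03 in AKI (SD, n = 2), and its Ctsl was 3.76 and 3.67 ± 0.91.

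The distal segments showed larger differences for Ctsd and Ctsl. In TAL-like cells Ctsd was 5.02 in the control, 18.17 and 20.75 in AKI and 13.30 and 22.31 in CKD, with AKI at 3.62-fold and 4.13-fold the control. Ctsl there was 1.46, then 5.36 and 8.59, then 2.51 and 8.39, with AKI at 3.67-fold and 5.87-fold. In both genes CKD 2 lay at or above the lower AKI library and CKD 1 below both. CKD 1 was the library whose TAL-like cells were shallow and held the highest sum of proximal tubule markers.

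DCT-like cells gave nearly the same values. Ctsd was 4.48 in the control, 16.76 and 16.51 in AKI and 9.49 and 17.09 in CKD, and Ctsl 1.49, then 5.49 and 5.50, then 2.68 and 5.10, so that AKI stood at 3.75-fold and 3.69-fold the control for Ctsd and at 3.68-fold and 3.69-fold for Ctsl. Here too CKD 1 lay below CKD 2 in both genes. Its barcodes began at 1229 UMIs, against 500 to 599 in the others. Its DCT-like cells had the highest median depth of the 5 libraries (2264 UMIs per cell) but the lowest mean, with 1228428 UMIs in 328 cells. In CKD 2 these cells held 474412 UMIs in 98 cells. Of the 9 members, 4 in TAL-like cells and 6 in DCT-like cells were at least 2-fold above the control in both AKI libraries, where 9.61% and 8.40% of genes were. The other members past this fold were Ctss and Ctsh in TAL-like cells and Ctss, Ctsz, Ctsh and Ctsc in DCT-like cells. Of these, Ctss in both classes and Ctsz in DCT-like cells were below the level of T lymphocyte-like cells in both AKI libraries, whereas Ctsh (0.11 in the control, 0.52 and 0.58 in AKI) and Ctsc (0.42, then 2.14 and 1.21) of DCT-like cells were above it. In CD PC-like cells Ctsd was 2.48-fold and 2.64-fold the control (5.72, then 14.15 and 15.08), and in thin limb-like cells Ctsl was 2.39-fold and 2.04-fold (5.70, then 13.61 and 11.63).

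**Figure D4:**
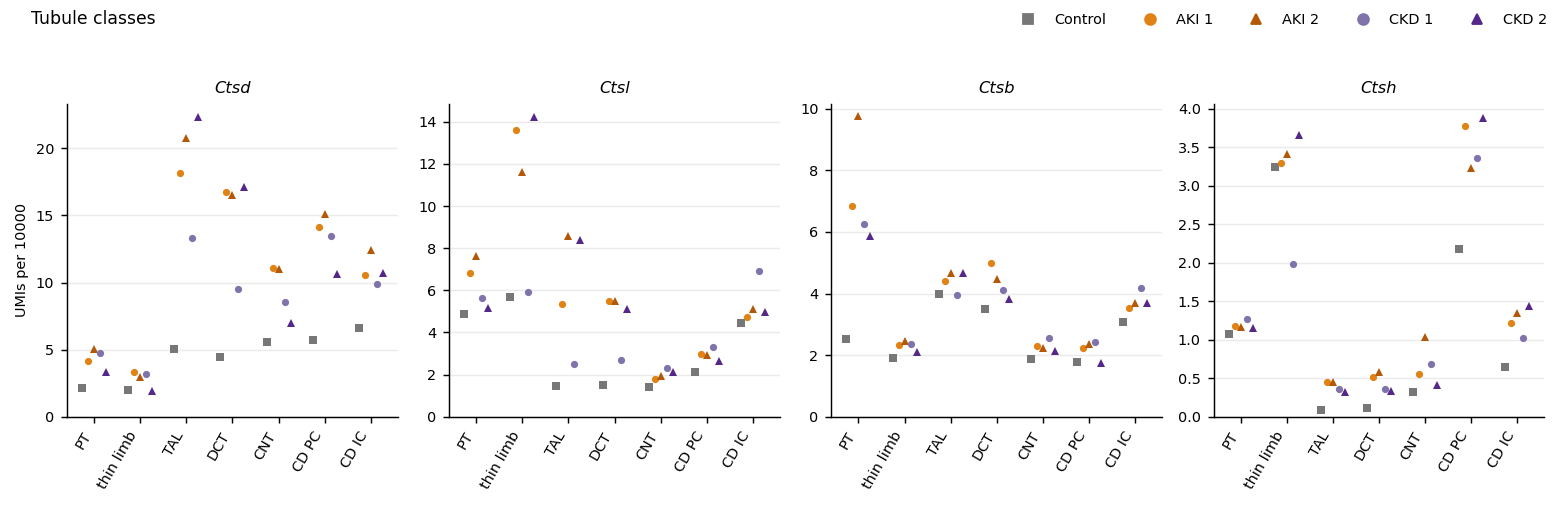
Levels of Ctsd, Ctsl, Ctsb and Ctsh in 7 tubule classes, in UMIs per 10000, with 1 point per library. The control (grey) is at 5.02 and 4.48 for Ctsd in TAL-like and DCT-like cells, below both AKI libraries (orange) at 16.51-20.75, while CKD 1 and CKD 2 (purple) part in these classes.

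From AKI to CKD few of these genes were called in the tubules. In PT-like cells the log2 fold changes of the 8 members other than Ctsk were between -0.42 (Ctsb) and 1.25 (Ctss), with a median of -0.12, and 0 of the 8 were called by edgeR (lowest adjusted p = 0.0863, for Ctss; 1 of the 8 at an unadjusted p under 0.05). Only 0.935% of 12083 genes were called in these cells, and 1812 of them had an unadjusted p under 0.05. DESeq2 called 2 of the 9 members, with its count of all genes given below. TAL-like, CD PC-like and CD IC-like cells had 0 of 9 members called, where 0.0361%, 0.00993% and 0% of all genes were called, with 1, 0 and 2 of the members other than Ctsk at an unadjusted p under 0.05. Of all genes, 1126 of 11074, 527 of 10067 and 932 of 10893 were under this unadjusted threshold. In neutrophil-like cells 0 of the 7 members tested were called, nor was any of 1431 genes (0%), with 0 members and 95 of all genes at an unadjusted p under 0.05.

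Ctsk was called as higher in 3 classes that are not macrophages. In PT-like cells it was 0.00 and 0.01 in AKI, on 1 and 5 UMIs, and 1.05 and 0.13 in CKD, on 1203 and 47 UMIs (6.97 ± 1.17 on the log2 scale, edgeR adjusted p = 0.0465). In DCT-like cells it was 0.01 and 0.05, then 1.45 and 0.21 (5.28 ± 0.66, adjusted p = 0.000126; 1.47% of genes called), and in cDC2-like cells 0.00 and 0.01, then 0.61 and 1.69 (7.94 ± 0.86, adjusted p = 0.0325; 0.0738% called). These fitted folds rest on at most 5 AKI UMIs per library and are no measure of size.

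The CKD levels of Ctsk in these classes moved with those of other genes of the SM-like cluster. Between CKD 1 and CKD 2, those of PT-like and DCT-like cells also moved with that of T lymphocyte-like cells, and that of cDC2-like cells moved the other way. T lymphocyte-like cells held 0.30 and 0.15 in CKD, so that the value of PT-like cells in CKD 2 lay under theirs. In PT-like cells Acp5 was 0.34 and 0.36 in AKI and 1.96 and 0.68 in CKD, Mmp9 was 0.01 and 0.00, then 0.67 and 0.15 (6.43 ± 0.90, adjusted p = 0.0371), and the 7 Macro-like markers summed to 1.68 and 1.11, then 3.38 and 1.55, with none of the 7 at 0. In DCT-like cells Acp5 was 0.05 and 0.05 in AKI and 2.01 and 0.25 in CKD, and Mmp9 was 0.01 and 0.03, then 0.97 and 0.13. In cDC2-like cells Acp5 was 0.21 and 0.31, then 1.20 and 2.42, and Mmp9 was 0.00 and 0.00, then 0.30 and 0.88. Both genes were thus higher in CKD than in AKI in each of the 3 classes. The summed Macro-like markers did not follow this in the other classes. They were 0.91 and 1.64, then 2.09 and 0.48 in DCT-like cells, with 2 of the 7 at 0 in CKD 2. In cDC2-like cells they were 3.96 and 6.74, then 3.85 and 3.27, so both CKD libraries were lower than AKI. In CKD 1 the Ctsk of PT-like cells was uneven, at 2.42 in the Miox-led cluster, where Acp5 was 4.06, and at 0.16 in the Slc4a4-led cluster, where Acp5 was 0.59. The ratio of Ctsk to Acp5 UMIs in CKD 1 was 0.774 in SM-like cells, 0.535 in PT-like cells, 0.721 in DCT-like cells, 0.506 in cDC2-like cells and 0.290 in T lymphocyte-like cells. In CKD 2 it was 0.809 in SM-like cells, 0.197 in PT-like cells, 0.700 in cDC2-like cells and 0.162 in T lymphocyte-like cells, and DCT-like cells held only 10 Ctsk UMIs. In T lymphocyte-like cells Acp5 was already 0.60 in the control and 0.82 ± 0.10 in AKI, against 0.98 ± 0.10 in CKD (SD, n = 2). In PT-like cells it was 0.14 in the control. The ratios of these 2 classes thus do not reflect the higher Acp5 of CKD alone. The part of free RNA and of mixed droplets in these calls was not tested.

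At an equal depth of 1000 UMIs, 8.63% of PT-like cells in CKD 1 and 1.59% in CKD 2 held a Ctsk UMI, against 0.238% and 0.234% in AKI, and 17.6% and 11.5% of CKD cells did before thinning. The call in PT-like cells was lost without AKI 1 (adjusted p = 0.113), without AKI 2 (0.219) and with doublets kept (0.0946), that in cDC2-like cells was lost under the same 3 settings (0.142, 0.217 and 0.118), and that in DCT-like cells was lost without CKD 1 (0.590), with DESeq2 (0.135) and with cells of at least 2000 UMIs only (0.0565).

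Pericyte/Fibro-like cells were the class outside macrophages with Ctsk already in the control and in AKI. In their cluster led by Dcn, Ctsk was 1.21 in the control, 1.86 and 2.12 in AKI, and 10.28 and 1.33 in CKD. The value of CKD 1 stood apart, and there Acp5 was 14.13, Mmp9 7.33 and the sum of the 7 Macro-like markers 10.6, against 1.20, 0.13 and 0.56 in CKD 2. In the control and in AKI, where Acp5 was 0.14-0.29, Ctsk exceeded Acp5 in these cells, and in SM-like cells it did not in any library. Ctsl, in the same cluster, was 12.42 in the control, 9.67 and 10.81 in AKI, and 3.93 and 14.33 in CKD.

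The change from AKI to CKD differed between macrophages and proximal tubule for 3 of the 9 members, tested as the interaction of class and condition in edgeR with the library as a block, where 6.11% of 13846 genes were called. The difference, Macro-like minus PT-like, was -2.96 ± 0.39 on the log2 scale for Ctss (adjusted p = 0.0265), -2.26 ± 0.43 for Ctsc (0.0478) and -1.74 ± 0.19 for Ctsh (0.0205). It was not called for Ctsd (-1.11 ± 0.22, 0.0506), Ctsl (-0.98 ± 0.21, 0.0593), Ctsz (-0.93 ± 0.21, 0.0650) and Ctsb (-1.10 ± 0.26, 0.0693), nor for Ctsa (-0.21 ± 0.20, 0.569) and Ctsk (-0.69 ± 1.62, 0.851). By this test no member was called without AKI 1 or without AKI 2, and more members were called without CKD 1 or without CKD 2. The number of genes called in all also changed widely with the library left out, as given below.

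**Figure D5:**
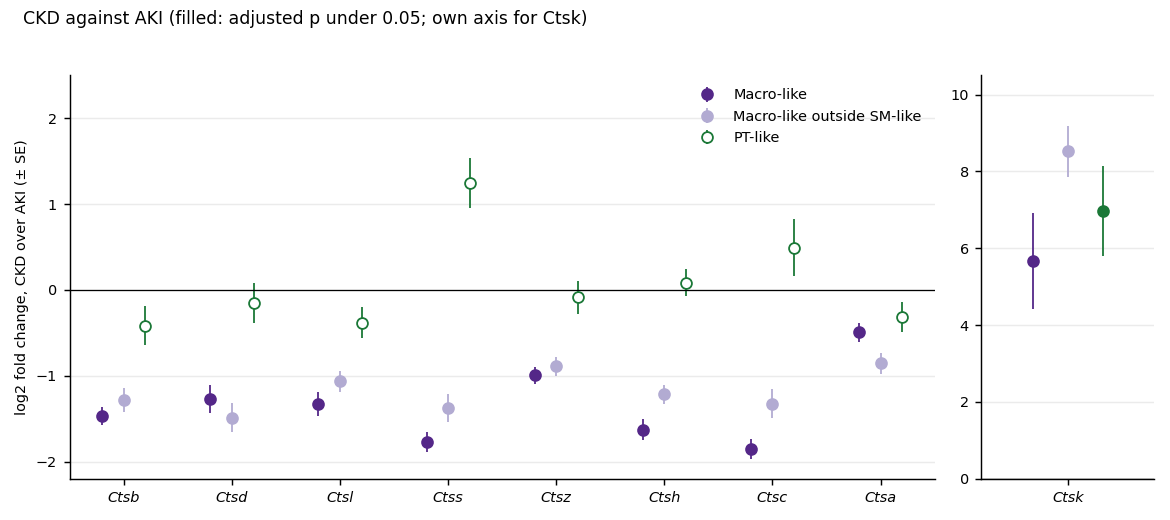
Log2 fold changes of CKD over AKI with standard errors from edgeR, for 8 cathepsins on the left axis and Ctsk on its own axis, in Macro-like cells (dark purple), Macro-like cells outside SM-like (light purple) and PT-like cells (green), filled where the adjusted p was under 0.05. The 8 values in Macro-like cells lie between -1.85 and -0.49, whereas none of those in PT-like cells is filled except for Ctsk.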

How the data were processed

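Droplet-based 3′ single-cell RNA libraries were prepared from mouse kidneys digested with collagenase IV and DNase I (1 control, 2 AKI and 2 CKD libraries). The authors deposited UMI counts per gene and cell barcode as sparse matrices, not normalized. Their methods name Cell Ranger 7.2.0, STAR and the GRCm39 build, while the headers of the AKI and CKD matrices name Cell Ranger 5.0.0, and the control matrix was written by another program, so equal processing of the control is not assured. Barcodes with at least 200 genes and at most 30% mitochondrial UMIs were kept, and predicted doublets (7.33% to 15.4% per library) were removed. The paper's methods name CellBender for ambient RNA, whereas here no correction for free RNA was applied to the counts as deposited. Cells were clustered on 3000 variable genes without the Cts genes, over 40 components corrected by library, and named "X-like" by the markers with at least 3 detected; the clusters were in view when this naming rule was set.

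UMIs were summed per class and library and tested with edgeR 4.0.16 (quasi-likelihood, TMM, Benjamini-Hochberg over all genes tested), with DESeq2 1.42.0, other filters, other cell selections, a replicate block and libraries left out in turn as alternatives, after the fits had been checked on simulated counts. The control, of 1 library, entered no test, and AKI was described against it by fold, a gene being considered with at least 20 UMIs in at least 1 of the 3 sums. Intervals are 95% exact Poisson intervals and cover counting error only. Cells are not replicates, and the methods give the sample sizes as 1, 2 and 2 without saying whether a library pooled mice, so p-values measure the spread between libraries, which may be technical. The members and lists were chosen with earlier results of these data known. Named genes outside the members were the 3 largest called changes of each list in Macro-like and PT-like cells, the 3 genes most correlated with each member and the leading genes of the clusters described. Acp5 and Mmp9 are also given wherever Ctsk was called outside macrophages. Results for 1 gene are not reported here.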

Additional observations from a re-analysis of the deposited data

Results flagged for a closer look

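The change from AKI to CKD differed between Macro-like and PT-like cells for 3 cathepsins by the test of the difference itself (edgeR interaction term, 2 libraries per group). For Ctss it was -2.96 on the log2 scale, with 23.4 ± 0.09 in AKI and 7.74 ± 0.49 in CKD (SD, n = 2, UMIs per 10000) in Macro-like cells, where both CKD libraries were lower, and 0.25 ± 0.01, then 0.58 ± 0.25 in PT-like cells, where both were higher. For Ctsc it was -2.26, with 8.79 ± 0.50, then 2.75 ± 0.11 in Macro-like cells and 0.20 ± 0.04, then 0.25 ± 0.13 in PT-like cells. For Ctsh it was -1.74, with 6.14 ± 0.39, then 2.25 ± 0.35 in Macro-like cells and 1.18 ± 0.01, then 1.21 ± 0.09 in PT-like cells. The PT-like levels of Ctss and Ctsc in AKI and CKD lay below those of T lymphocyte-like cells (0.77-0.93 and 0.44-0.55), while those of Ctsh lay above them, at 1.15-1.27 against 0.05-0.15. At an equal depth of 1000 UMIs per cell, however, the PT-like cells of CKD 1 held a UMI of Ctss or Ctsc slightly more often than its T lymphocyte-like cells did. The part of free RNA in the tubule side of the difference was not tested.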

How the results depend on the processing

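Of the alternatives run for each named gene, 566 gave the same call and direction, 55 lost the call, 23 gained one and 11 changed sign. In Macro-like cells 9 members and 4315 genes were called; leaving out 1 library gave 1825 to 5889 genes, and leaving out the SM-like and Jdp2-led clusters (chosen after seeing the data) gave 681 genes and opposite signs for Mitf (-0.20) and Arsb (-0.40). Outside SM-like cells 9 members and 2896 genes became 1 to 9 members and 76 to 5458 genes when 1 library was left out.

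In PT-like cells 1 member and 113 genes were called. These became 2 members and 272 genes with DESeq2, 2 and 1085 without a filter on low counts, 0 and 11 with doublets kept, 2 and 210 without correction by library, 2 and 350 at no more than 15% mitochondrial UMIs, 2 and 274 with cells of at least 2000 UMIs (chosen after seeing the data), and 0 to 3 members and 1 to 1338 genes with 1 library left out. With 1 library left out, changes of PT-like cells turned sign: Ctsz (-0.247 to 0.0619), Ctsd (-0.449 to 0.0758), Ctsc (-0.239 to 0.879) and Ctsh (-0.0098 to 0.155), the last also at 15% mitochondrial UMIs (-0.0113). At that limit 5 members rather than 3 were at least 2-fold above the control in AKI, and the share of all genes that were so at that limit is not given.

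For the difference between the classes, 3 members and 846 genes were called. There were 1497 genes without a filter on low counts, 1 member and 363 genes with doublets kept, 5 members without correction by library, 5 with cells of at least 2000 UMIs, and 0 to 8 members and 0 to 3759 genes with 1 library left out, where Ctsk turned sign (-2.18 to 2.15). In the other classes 2 members were called in all, 8 without a filter on low counts, 1 with doublets kept, 1 without correction by library, 1 with cells of at least 2000 UMIs and 1 to 19 with 1 library left out. The cause was not tested. For settings given here without a count of all genes, a change in the members cannot be told apart from a change in calls overall. DCT-like cells without correction by library and neutrophil-like cells of at least 2000 UMIs were too few to fit and were not run.

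Libraries of AKI and CKD share replicate numbers. With the replicate block 9 members were called in Macro-like cells, 2 members and 757 genes in PT-like cells and 5 members in the other classes. The counts of all genes called in Macro-like cells and in the other classes with this block are not given. The deviations of same-numbered libraries correlated at 0.147 in Macro-like and 0.165 in PT-like cells over only 2 pairs, and the labels state no pairing, so the libraries share only a number.

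With 2 libraries per group and 1 control library, changes smaller than the spread between 2 libraries could not be seen, and depth per cell differed by class and library. A group left with 1 library is assumed to vary like the other.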

Other observations

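A cluster of shallow cells led by Slpi, with medians of 598.5 to 1678 UMIs per cell, could not be named and holds 105 to 597 cells per library. Its Ctsb was 3.10 UMIs per 10000 in the control, 5.28 and 7.64 in AKI and 3.48 and 7.18 in CKD, and its Ctsk was 0.00, then 0.03 and 0.07, then 3.45 and 1.13. In the cluster led by Ttn, also unnamed, with medians of 851 to 1484 UMIs, Ctsk was 0.00, then 0.02 and 0.02, then 1.12 and 0.45. In both, Acp5 was higher in CKD as well, at 5.75 and 2.08 in the Slpi-led cluster and at 1.55 and 1.09 in the Ttn-led cluster.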
